A study of Mus musculus with 8 samples.

Results

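The regenerating (Reg) genes were followed across 8 islet samples of the inbred mouse strains AKR/J and C57Bl/6J. The family was taken as the 7 genes Reg1, Reg2, Reg3a, Reg3b, Reg3d, Reg3g and Reg4, and every probe set of the array that its annotation assigns to one of them was used, which gave 8 of 45101 probe sets. Reg3b has 2 probe sets and the other genes 1 each. The family was chosen by its log2 intensities and Signal values per strain and array, which were already known. Its strain differences are therefore given as a description with their errors and without a test.

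Both strains had been kept on a high-fat diet for 3 months, so diet is shared by all groups. There were 4 RNA samples of AKR/J islets, on arrays 1 to 4, and 4 of C57Bl/6J islets, on arrays 5 to 8. Each sample combined the islets of 2 mice, whose sex and age the labels do not give, and 5 µg of total RNA was used per array. Values are log2 intensities from GCRMA, which models background from each probe's base content and puts all arrays on a common scale, so a difference of 1 means a change by a factor of 2. The scanner software's own Signal and its detection p-value per array were the second readout of the same scans. A probe set is called detected on an array where that p-value was under 0.05.

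Reg proteins are small secreted proteins built around a C-type lectin domain. In the pancreas they are products mainly of acinar cells, which make the digestive enzymes, and they rise steeply in pancreatitis and after pancreatic injury, in part through cytokines of the interleukin-6 family that act on the transcription factor STAT3. Reg1 was first cloned from regenerating rat islets, and Reg genes have been studied since as growth factors for islet cells. Reg3b and Reg3g are also antibacterial lectins of the intestine.

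The tissue label was checked first. The hormone genes Ins2, Iapp, Gcg, Sst, Ppy and Pyy were detected on 8 of 8 arrays, with strain means of 13.4 to 15.7 on the log2 scale. Transcripts of acinar cells were also present on every array, as the values given beside the Reg genes below show. Between 43.7% and 48.1% of probe sets were detected per array, and the 3' over 5' control probe sets, a sign of RNA integrity, gave log2 ratios that ran from 1.16 to 1.41 for actin and from -0.33 to -0.19 for Gapdh, apart from a Gapdh ratio of 0.11 on C57Bl/6J array 8. Precision is limited by having 4 arrays per strain.

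Of the 7 genes, 6 lie on mouse chromosome 6 in the order Reg3b, Reg3d, Reg3a, Reg2, Reg1 and Reg3g, with 1 pseudogene and no other gene annotated among them, and Reg4 lies on chromosome 3. The 250 bases before the start of 5 of the clustered genes are printed because these neighbours gave very different readings on the same arrays. Reg1, Reg2 and Reg3d separated the strains, Reg3b varied among arrays of each strain, and Reg3g, whose upstream bases resemble those of Reg3b most, was not detected. They are RefSeq sequences of GRCm38.p6, a C57BL/6J genome, at chr6:78425733-78425982, chr6:78404905-78405154 and chr6:78370635-78370884 on the forward strand and chr6:78378866-78379115 and chr6:78468875-78469124 on the reverse strand, written 5′ to 3′ along the gene. Capitals mark the letters of the TATA box (TATAAA), of the STAT site (TTCNNNGAA) and of the E-box and TC-box (CACCTG and TTTCCC) that together make up the site of PTF1, the transcription factor of acinar enzyme genes, each searched on both strands.
Reg1: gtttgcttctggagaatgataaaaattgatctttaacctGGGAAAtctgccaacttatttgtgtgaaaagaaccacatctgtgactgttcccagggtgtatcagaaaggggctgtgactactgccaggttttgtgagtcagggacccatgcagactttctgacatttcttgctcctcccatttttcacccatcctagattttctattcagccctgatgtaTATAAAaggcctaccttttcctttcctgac
Reg2: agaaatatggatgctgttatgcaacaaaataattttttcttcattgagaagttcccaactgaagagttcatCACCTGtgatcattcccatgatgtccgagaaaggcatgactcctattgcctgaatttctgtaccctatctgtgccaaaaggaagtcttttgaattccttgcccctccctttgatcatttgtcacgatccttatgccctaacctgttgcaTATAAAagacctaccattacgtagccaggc
Reg3d: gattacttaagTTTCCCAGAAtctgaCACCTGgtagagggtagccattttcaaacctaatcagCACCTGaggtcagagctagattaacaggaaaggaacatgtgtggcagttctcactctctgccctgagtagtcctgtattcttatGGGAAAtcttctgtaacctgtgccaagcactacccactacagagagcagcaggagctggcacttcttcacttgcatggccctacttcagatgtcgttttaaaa
Reg3b: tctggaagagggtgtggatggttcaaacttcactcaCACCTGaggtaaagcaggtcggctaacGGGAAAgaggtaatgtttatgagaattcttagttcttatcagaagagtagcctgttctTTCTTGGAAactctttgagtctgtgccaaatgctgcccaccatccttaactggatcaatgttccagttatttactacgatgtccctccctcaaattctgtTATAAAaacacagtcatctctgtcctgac
Reg3g: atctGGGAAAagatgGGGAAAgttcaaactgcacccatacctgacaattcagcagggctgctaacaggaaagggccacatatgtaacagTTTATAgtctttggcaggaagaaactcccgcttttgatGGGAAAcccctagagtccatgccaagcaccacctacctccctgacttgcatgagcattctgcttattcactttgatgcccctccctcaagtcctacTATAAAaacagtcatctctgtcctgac
These motifs were chosen after the sequences had been read, and a match describes letters, not a bound site.

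TATAAA stood 25 to 30 bases before the start in Reg1 and Reg2, 24 to 29 in Reg3b and 22 to 27 in Reg3g, which held another match farther upstream on the other strand, and Reg3a, Reg3d and Reg4 had none. Of 32851 RefSeq promoter windows of this length, 12.4% held it, as did 11 of 31 windows of acinar genes. CACCTG was found in 5 of 7 Reg windows (Reg2, Reg3a, Reg3b, Reg3d and Reg4), against 17.2% of all windows and 17 of 31 acinar windows. TTTCCC was found in Reg1, Reg3b, Reg3d and Reg3g, against 21.9% of all windows and 7 of 31 acinar windows. The STAT letters were in Reg3b, as TTCTTGGAA at 121 to 129 bases before the start, and in Reg3d, as TTCCCAGAA at 230 to 238 bases, where they overlap a TTTCCC match, and 7.02% of all windows and 2 of 31 acinar windows held them. The windows of Reg3b and Reg3g were identical at 68.4% of aligned positions, those of Reg1 and Reg2 at 56.9%, and the other pairs at 44.9% to 52.7%.

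Reg1, Reg2 and Reg3d separated the strains completely by GCRMA, each lower in AKR/J. Reg1, a secreted acinar protein also known as pancreatic stone protein, was at 13.29, 13.47, 13.81 and 13.81 on the AKR/J arrays, against 14.72, 14.64, 14.55 and 14.74 on the C57Bl/6J arrays. The lowest C57Bl/6J array stood 0.74 above the highest AKR/J array. The AKR/J mean was 13.59 ± 0.26 and the C57Bl/6J mean 14.66 ± 0.08 (SD, n = 4 each), a log2 difference of -1.07 (SE 0.13), or 2.10-fold lower in AKR/J. In Signal units, Reg1 averaged 8748 ± 851 over the AKR/J arrays and 16756 ± 1683 over the C57Bl/6J arrays (SD, n = 4 each).

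Reg2, the closest relative of Reg1 and its neighbour on the chromosome, differed more and varied more. It was at 10.05, 11.18, 10.43 and 11.30 in AKR/J, against 12.19, 11.49, 13.34 and 12.79 in C57Bl/6J. The strains did not overlap, but the gap between C57Bl/6J array 6 and AKR/J array 4 was only 0.19. The AKR/J mean was 10.74 ± 0.60 and the C57Bl/6J mean 12.45 ± 0.80 (SD, n = 4 each), a difference of -1.71 (SE 0.43), or 3.28-fold lower in AKR/J. Within C57Bl/6J alone the highest array was 3.62-fold above the lowest, more than the mean strain difference. In Signal units the strains overlapped, since AKR/J array 2, at 2903.8, lay above C57Bl/6J array 6, at 2686.2.

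Reg3d, the mouse relative of the hamster islet neogenesis associated protein INGAP, had the largest strain difference of the family. It was at 6.10, 7.02, 7.11 and 7.23 in AKR/J, against 9.26, 8.72, 9.14 and 9.16 in C57Bl/6J. Every C57Bl/6J array was at least 1.49 above every AKR/J array. The AKR/J mean was 6.87 ± 0.52 and the C57Bl/6J mean 9.07 ± 0.24 (SD, n = 4 each), a difference of -2.21 (SE 0.25), or 4.61-fold lower in AKR/J. Its Signal was 163.5, 244.5, 215.1 and 255.5 in AKR/J, against 765.0, 582.7, 720.5 and 852.8 in C57Bl/6J. Relative to the far brighter Reg1 on the same array, Reg3d differed by -1.14 between strains on the log2 scale, without overlap of the strains.

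**Figure D1:**
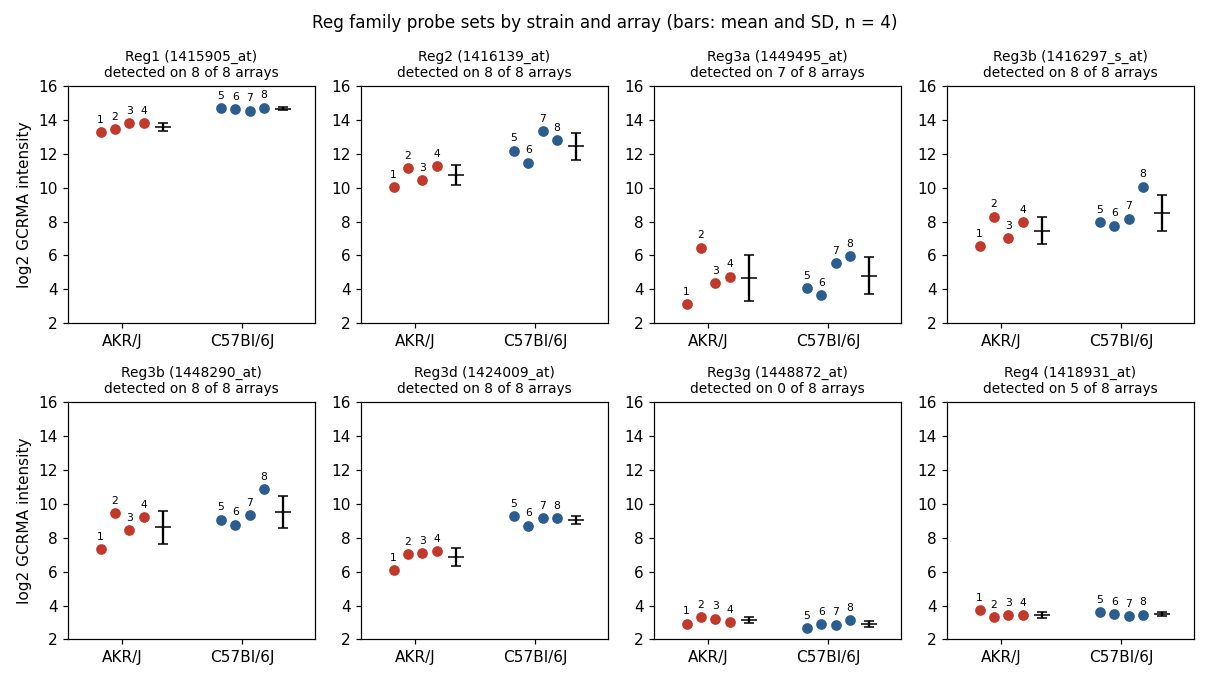
Log2 GCRMA intensity (vertical axis) of the 8 Reg probe sets in AKR/J (left, red, arrays 1 to 4) and C57Bl/6J (right, blue, arrays 5 to 8), with bars for the mean and SD of 4 arrays. Reg1, Reg2 and Reg3d are lower on every AKR/J array, Reg3a and Reg3b overlap with a wide spread in both strains, and Reg3g and Reg4 lie between 2.69 and 3.72 throughout.

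Reg3b, the pancreatitis-associated protein, did not separate the strains. Its brighter probe set was at 7.34, 9.49, 8.45 and 9.23 in AKR/J, against 9.08, 8.78, 9.36 and 10.88 in C57Bl/6J. Only C57Bl/6J array 8 lay above all AKR/J arrays. The AKR/J mean was 8.63 ± 0.97 and the C57Bl/6J mean 9.53 ± 0.93 (SD, n = 4 each), a difference of -0.90 (SE 0.58), which is less than the SD within either strain. The other probe set, whose suffix _s_at marks probes that can match several transcripts, was at 6.57, 8.29, 7.03 and 7.99 in AKR/J, against 7.98, 7.76, 8.18 and 10.07 in C57Bl/6J. It ranked the 4 arrays of each strain in the same order as the brighter one and gave a difference of -1.03 (SE 0.58). Leaving out AKR/J array 1 or C57Bl/6J array 8 brought the difference of the brighter probe set to -0.47 and -0.45.

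Reg3a, whose human namesake is an antibacterial lectin of pancreas and gut, was dimmer and ran over a wider range still. It was at 3.15, 6.46, 4.35 and 4.75 in AKR/J, against 4.07, 3.67, 5.53 and 5.95 in C57Bl/6J. AKR/J array 1 was the only one of 8 where Reg3a was not detected, and among the other 3 AKR/J arrays the highest was 4.30-fold above the lowest. The AKR/J mean was 4.68 ± 1.37 and the C57Bl/6J mean 4.81 ± 1.11 (SD, n = 4 each), a difference of -0.13 (SE 0.76). It changed sign with single arrays, to 0.38 without AKR/J array 1, 0.11 without C57Bl/6J array 7 and 0.25 without array 8, and was -0.72 without AKR/J array 2.

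Reg3g and Reg4, both best known from the intestine, gave no usable strain comparison. Reg3g was not detected on any of 8 arrays, with values of 2.94 to 3.31 in AKR/J, against 2.69 to 3.12 in C57Bl/6J. Reg4 was detected on 2 of 4 AKR/J arrays and 3 of 4 C57Bl/6J arrays, with values of 3.31 to 3.72 in AKR/J, against 3.38 to 3.62 in C57Bl/6J. Its difference was -0.02 (SE 0.10) by GCRMA and -0.54 with the MAS5-type Signal, both close to background.

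The fit over all probe sets puts these sizes in context. Of the 8 Reg probe sets, 7 passed the requirement of detection on at least 4 arrays, and 3 of these 7 passed the adjusted threshold of that fit, all lower in AKR/J, where 14.3% of the 20772 tested probe sets passed in either direction, 7.7% as lower and 6.59% as higher in AKR/J. The same 3 had all AKR/J arrays below all C57Bl/6J arrays, as did 10.6% of the tested probe sets, while 12.3% had them all above. Nothing is read from these counts, since the family was proposed with the contrast known. The count was 2, without Reg2, with the MAS5-type Signal, with no filter on dim probe sets, and without array 1, 2, 3, 5, 7 or 8.

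Transcripts of acinar cells moved the same way on the same arrays. Of 27 tested genes of the acinar list, 25 fell in AKR/J, 1 rose and 1 missed the threshold (limma, adjusted over all 20772 probe sets), where 8.53% of the 10891 genes tested were lower and 7.79% higher, with a median difference of -0.82 against 0.00012 over all these genes. The lipase-related gene Pnliprp2 had a mean of 12.34 ± 0.18 in AKR/J, against 13.91 ± 0.07 in C57Bl/6J (SD of 4 arrays, limma adjusted p = 4.47e-05). The zymogen granule gene Cuzd1 was 3.11-fold lower on AKR/J arrays (adjusted p = 6.42e-05) and the trypsin inhibitor gene Spink1 3.98-fold lower (adjusted p = 6.7e-05). The chymotrypsin gene Ctrc went the other way, 16.3-fold higher in AKR/J (adjusted p = 1.21e-05). Of the transcription factor genes of the list, Ptf1a, a subunit of PTF1, was 5.22-fold lower on AKR/J arrays (adjusted p = 0.000432) and Nr5a2 1.90-fold lower (adjusted p = 0.0459), Bhlha15 had a difference of 0.32 (adjusted p = 0.248), and Rbpjl was not detected on any array. Nr5a2 was detected on 8 of 8 arrays, but it was as dim as Reg3g, at 2.16 to 2.45 in AKR/J, against 2.49 to 3.80 in C57Bl/6J. Its fold is therefore of limited meaning. These 4 transcription factor genes were chosen for mention after their values had been seen. In bulk RNA, fewer acinar cells and less RNA per acinar cell cannot be told apart.

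Set against the mean of the acinar list on the same array, the Reg genes fell into different positions. Reg1 differed between strains by -0.04 relative to that mean and by -0.23 relative to the list's median, and the strains then overlapped. Reg3d stayed lower in AKR/J, by -1.18 relative to the mean and -1.37 relative to the median, at -1.29, -0.32, -0.48 and -0.28 in AKR/J, against 0.70, 0.38, 0.62 and 0.67 in C57Bl/6J on the scale of the mean. Reg2 lay between these, at -0.69 and -0.88, with overlap of the strains. The brighter Reg3b probe set gave 0.13 and -0.06, and Reg3a 0.90 and 0.71. The list joins very bright genes with small differences, such as Cela3b (-0.57) and Ctrb1 (-0.33), to dimmer ones. Most of the dimmer ones fell further, such as Gatm (-2.82) and Pla2g1b (-2.36), while Bhlha15 (0.32) and Ctrc (4.02) went the other way. Reg1 was bright and Reg3d far dimmer, and these positions were not matched for intensity. Single acinar genes differed by as much as the Reg genes did, since 10 of the 27 had a larger negative difference than Reg1, 8 than Reg2 and 4 than Reg3d. The 10 were all dimmer than Reg1 in both strains. Acinar genes brighter than Reg1 in both strains differed less than it did, from -0.91 for Zg16 to -0.33 for Ctrb1. The acinar list mean itself ran from -0.63 to -0.38 in AKR/J, against 0.38 to 0.59 in C57Bl/6J, as deviations from the mean of all 8 arrays. The part of acinar transcripts in the Reg differences was not tested.

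**Figure D2:**
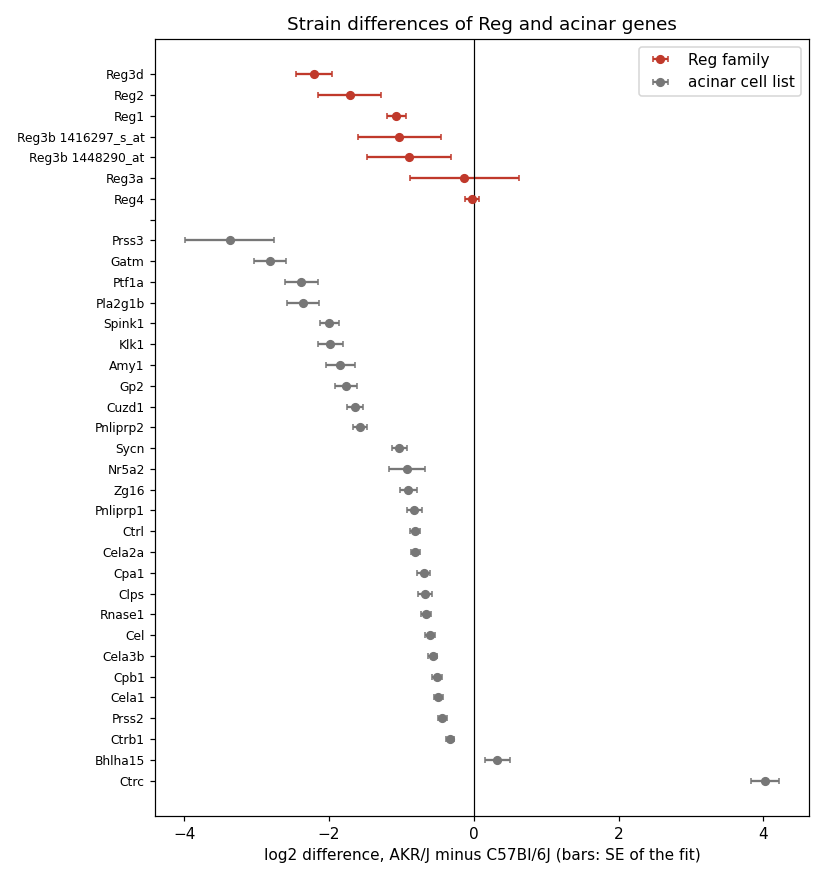
Log2 difference, AKR/J minus C57Bl/6J, with the SE of the fit, for the 7 tested Reg probe sets (red, top) and the 27 tested genes of the acinar list (grey, below), each ordered by size. Reg3d, Reg2 and Reg1 fall among the acinar genes, which run from -3.37 for Prss3 to 4.02 for Ctrc.

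The other feature was the wide spread of some members among arrays of one strain. The residual SD within strains was 1.25 for Reg3a, 0.95 and 0.94 for the Reg3b probe sets and 0.71 for Reg2, against a median of 0.185 over the tested probe sets. Without AKR/J array 1, where Reg3a was not detected, its residual SD was 1.11. Over all 8 arrays, between 99.2% and 99.9% of tested probe sets varied less than these 4 did. The comparison was repeated among probe sets within 0.5 of the same mean log2 intensity, where 99.2% varied less than Reg2, 99.8% less than either Reg3b probe set and 99.9% less than Reg3a. Reg3d, at 0.40, exceeded 97.2% of its neighbours in intensity and Reg1, at 0.19, exceeded 93.7%. Reg4, at 0.14, exceeded 28.9%. Among all tested probe sets, Reg3d exceeded 92.5%, Reg1 53.0% and Reg4 32.3%. These percentages are descriptions, and the comparison among neighbours in intensity was chosen after the values had been seen.

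**Figure D3:**
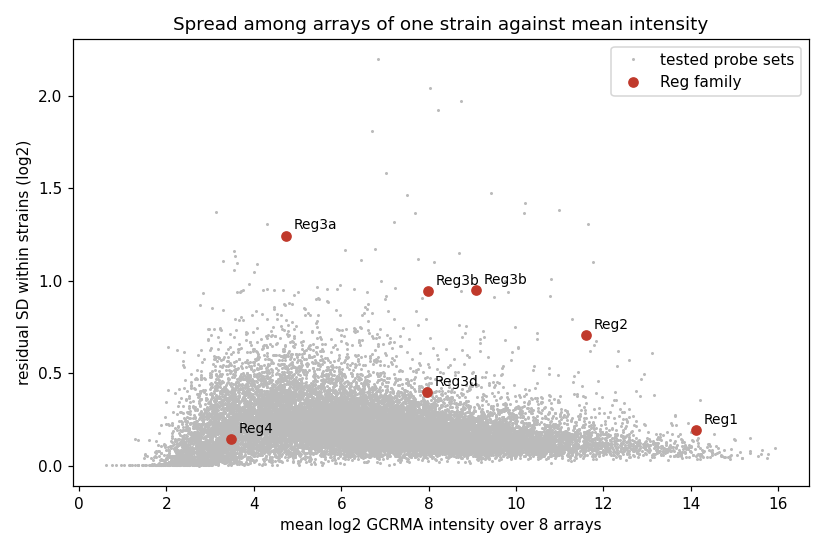
Residual SD within strains (vertical axis, log2) against the mean log2 intensity over 8 arrays (horizontal axis) for the 20772 tested probe sets (grey) and the 7 tested Reg probe sets (red). Reg3a, both Reg3b probe sets and Reg2 stand above nearly all probe sets of similar intensity, at 1.25, 0.95, 0.94 and 0.71.

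The low arrays were shared by most members and by many acinar genes. In AKR/J, array 1 was the lowest for all 6 Reg probe sets that were detected on at least 6 arrays. In C57Bl/6J, array 6 was the lowest for 5 of these 6, all but Reg1. Reg4, close to background, was highest on array 1. Of the 27 acinar genes, 19 were also lowest on array 1 among AKR/J arrays and 14 on array 6 among C57Bl/6J arrays, counts made after the values had been seen. The share of all tested genes lowest on these arrays was not counted, so the counts cannot show whether this is particular to Reg and acinar genes. The Reg3a and both Reg3b probe sets ranked the arrays identically, with array 2 highest, then 4, 3 and 1 in AKR/J, and array 8 highest, then 7, 5 and 6 in C57Bl/6J. Reg2 differed from that order only in the upper pair of each strain, with array 4 above 2 and array 7 above 8. The acinar list mean was lowest on array 2 in AKR/J and on array 6 in C57Bl/6J, with an SD of 0.11 among AKR/J arrays and 0.09 among C57Bl/6J arrays. A mean over many genes varies less than a single probe set, and single acinar genes had a median residual SD of 0.145, with the largest at 1.01 for Prss3.

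**Figure D4:**
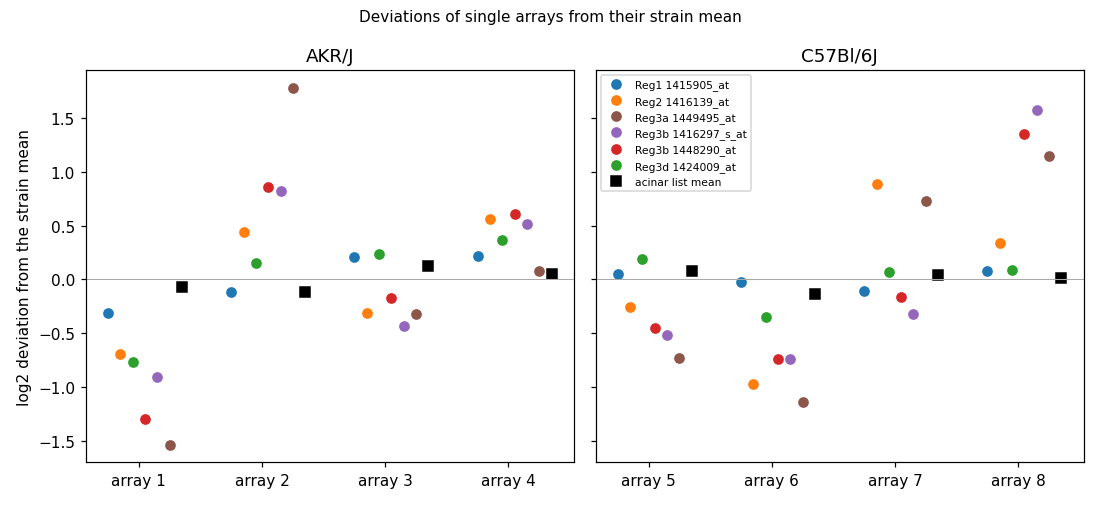
Deviation of each array from its strain mean (vertical axis, log2) for 6 Reg probe sets (coloured circles) and the mean of the acinar list (black squares), AKR/J on the left and C57Bl/6J on the right. Reg3a, Reg3b and Reg2 lie lowest on arrays 1 and 6, and the acinar mean, lowest on arrays 2 and 6, moves over no more than 0.25 in AKR/J and 0.22 in C57Bl/6J. The order of arrays 1 and 2 in that mean depends on the gene Prss3.

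Earlier results of these data had set arrays 1, 2, 5 and 6 apart from 3, 4, 7 and 8, and each of these sets holds 2 arrays per strain, so the strain differences were also taken within each set. Reg1 differed by -1.30 in the first set and -0.84 in the second, and Reg3d by -2.43 and -1.98. Reg2 differed by -1.22 and -2.20, and the brighter Reg3b probe set by -0.52 and -1.28. Reg3a turned round, at 0.93 in the first set and -1.19 in the second. Each value rests on 2 arrays per strain and has no test.

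Genes of the interleukin-6 family and of STAT3 signalling seldom passed the test between strains. This list holds cytokines, receptors, kinases, inhibitors and downstream targets as well as Extl3, so most of its members are not themselves inducers of Reg genes. Of 26 tested, 1 fell in AKR/J, 0 rose and 25 missed the threshold (limma, adjusted over all probe sets), a share of 3.85% against 16.3% of all genes tested, and the median difference was -0.04. The gene that passed was Lifr, the receptor of leukemia inhibitory factor, with means of 10.06 ± 0.15 in AKR/J, against 10.72 ± 0.13 in C57Bl/6J (SD of 4 arrays, limma adjusted p = 0.00378). Socs3, a feedback inhibitor induced by STAT3, had means of 12.14 ± 0.18 in AKR/J, against 11.82 ± 0.17 in C57Bl/6J (adjusted p = 0.106). Stat3 itself had means of 9.61 ± 0.20 in AKR/J, against 9.66 ± 0.29 in C57Bl/6J (adjusted p = 0.857). Extl3, which has been proposed as a receptor of Reg proteins, had means of 6.23 ± 0.17 in AKR/J, against 6.75 ± 0.35 in C57Bl/6J (adjusted p = 0.0872). Il6 was at 5.74, 4.08, 2.66 and 5.11 in AKR/J, against 4.07, 4.05, 4.06 and 3.87 in C57Bl/6J. Socs3, Stat3, Extl3 and Il6 were chosen for mention after their values had been seen.

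Of 18 tested genes known from acinar injury and pancreatitis, 2 fell in AKR/J, 1 rose and 15 missed the threshold, a share of 16.7%, close to the 16.3% of all genes tested, with a median difference of 0.03. Tff2, a trefoil peptide of mucous epithelia, was 6.68-fold lower on AKR/J arrays (adjusted p = 9.56e-05), and Nupr1, a stress gene first found in pancreatitis, 3.84-fold lower (adjusted p = 0.000124). Clu, which encodes the chaperone clusterin, was 1.36-fold higher (adjusted p = 0.0376) and missed the threshold under 8 of 16 alternative settings. Lcn2, Cxcl5 and Timp1, commonly induced in inflamed pancreas, were not detected on any array. Other members of the list were present, with Cxcl1, Cd44, Atf3 and Hbegf detected on 8 of 8 arrays. Ccl2 and Saa3 were detected on 4 of 8, and none of these genes passed the threshold.

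Markers of other cells that can hold Reg transcripts or act on them were read on the same arrays, and their part in the Reg values was not tested. Of 15 macrophage genes, 8 were lower in AKR/J and none of the 15 was higher, where 8.53% of all genes tested were lower and 7.79% higher, with a median of -0.57, and the list mean ran from -0.43 to -0.12 in AKR/J, against 0.22 to 0.43 in C57Bl/6J. C1qc was 3.50-fold lower (adjusted p = 0.000219) and Ctss 2.46-fold (adjusted p = 0.000574). Of 15 genes of intestinal epithelium with a probe set, 12 were detected on fewer than 4 arrays, and 6 of them, among these Fabp1, Fabp2, Cdx1 and Cdx2, on none. The 3 tested, of which 2 passed as lower, were Vil1 (2.19-fold lower in AKR/J, adjusted p = 0.000988), Lyz1 (1.63-fold lower, adjusted p = 0.0124) and Alpi (difference 0.04). Lyz1 was read by a probe set with the suffix _x_at, whose probes can match other transcripts too. The macrophage gene Lyz2 was also lower in AKR/J (1.42-fold, limma adjusted p = 0.0463), and its part in the Lyz1 value was not tested. Of 5 duct genes tested, against the same shares over all genes, Tspan8 was 2.90-fold lower on AKR/J arrays (adjusted p = 0.000194) and Epcam 1.21-fold higher (adjusted p = 0.0343, missed under 9 of 16 alternative settings). Krt7, Cldn4 and Aqp1 were detected on 8 of 8 arrays and did not pass (limma adjusted p = 0.0779, 0.913 and 0.996). Cftr and Muc1 were not detected on any array.

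Of 6 hormone genes, Ppy was 1.86-fold higher in AKR/J (adjusted p = 0.034, missed under 7 of 16 alternative settings), and 5 did not pass, among them Ins2 with means of 15.71 ± 0.07 in AKR/J, against 15.50 ± 0.05 in C57Bl/6J (SD of 4 arrays, limma adjusted p = 0.0675). Of 14 beta cell genes, 3 were lower in AKR/J, which were the urocortin gene Ucn3 (1.43-fold, adjusted p = 0.00559), the glucose transporter gene Slc2a2 (1.47-fold, adjusted p = 0.0152) and the transcription factor gene Neurod1 (1.25-fold, adjusted p = 0.0338), and 11 did not pass. The shares called, 16.7% of the hormone genes and 21.4% of the beta cell genes, stand beside 16.3% of all genes tested. Neurod1 missed the threshold under 6 of 16 alternative settings, and Ucn3 with the MAS5-type Signal.

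Genes whose deviations from the strain means were most like those of a Reg gene were taken from the 10891 tested genes by Pearson correlation over the 8 arrays, as a description without a test. For Reg3b these were Tmem177 (r = 0.98), Tube1 (0.97) and Celf3 (0.97), and for Reg2 Zfp647 (0.98), 4921524J17Rik (0.96) and E130311K13Rik (0.96). For Reg1 they were Ro60 (0.99), Siva1 (0.99) and Dhx9 (0.97), and for Reg3d Qpct (0.99), Tmed5 (0.99) and Taf9b (0.98). For Reg3a they were Slc2a6 (0.96), Tpi1 (0.96) and Nop56 (0.95), and for Reg4 Skp1 (0.98), Spryd3 (0.97) and Alpi (0.96). With the MAS5-type Signal the coefficients of these 18 genes ran from -0.16 for Nop56 to 0.95 for Zfp647.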

How the data were processed

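Total RNA of 8 islet samples, 4 per strain by the strain in their titles, was hybridised to Affymetrix mouse arrays. Per the submitters' processing notes the authors made the intensity values of the deposited value table with GCRMA, with no version stated. These are on a linear scale and were log2-transformed without further normalization. Per the file headers the deposited per-array files hold a Signal intensity, of a MAS5 type, and a detection p-value per probe set. Columns of the value table matched their own per-array file at r of at least 0.755 and others at no more than 0.511. Probes that differ in sequence between strains can change the signal without a change in transcript, which was not tested.

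Of 45101 probe sets, 64 controls were left out and the 20772 detected on at least 4 of 8 arrays (p under 0.05) were fitted with limma 3.58.1 in R 4.3.3 (lmFit and eBayes, AKR/J minus C57Bl/6J), adjusted by Benjamini-Hochberg over all of them, with a threshold of 0.05. P-values measure the spread between pools of 2 mice. Array annotation names 1 symbol for 34945 probe sets, and a gene of a list is its brightest tested probe set of that kind. All 7 Reg genes matched a RefSeq table by Entrez identifier with 0 symbols changed. Members, lists and array sets were chosen with earlier results of these data known. Named genes are all Reg probe sets, the hormones, up to 4 called members of each list by smallest p (for a list with no call, its 2 brightest), and the 3 genes most like each Reg gene. The scripts were tested on simulated data with known changes.

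Alternatives were no filter, detection on all 8 arrays, the MAS5-type Signal (quantile-normalized above a floor at its 5th percentile), quantile-normalized GCRMA values, centring on medians, trend and robust variance, array weights, the array set as a block, each array left out, and scaling to the acinar list. Figures were drawn with matplotlib 3.10.9 in Python 3.11.15.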

Additional observations from a re-analysis of the deposited data

Results flagged for a closer look

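Among 66 groups of 4 arrays examined (the Reg probe sets and the named genes of the lists, in each strain), 3 held an array whose gap to the nearest other was too large a part of the group's range by Dixon's test at 95%. About 1 in 20 groups does so by chance. No Reg probe set was among them. Tspan8 was at 6.65 on AKR/J array 3, against 6.15 to 6.22 on the other AKR/J arrays. Vil1 was at 7.63 on AKR/J array 1, against 8.04 to 8.12 on the others. Iapp was at 15.40 on C57Bl/6J array 5, against 15.46 to 15.47 on the others.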

How the results depend on the processing

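No paired analysis was possible because the strains share no sample number. The count of probe sets that differed stayed within 1.5 times of 2968 under all 16 alternative fits, and so did the count of 3 Reg probe sets, which was 2 or 3. Differences over all fits ran from -1.14 to -0.76 for Reg1, -2.04 to -1.32 for Reg2, -2.33 to -1.74 for Reg3d, -0.72 to 0.38 for Reg3a and -1.19 to -0.45 for the brighter Reg3b probe set. With the MAS5-type signals the interleukin-6 list had 2 calls, the macrophage list 5, the duct list 1 and the beta cell list 1, against 1, 8, 2 and 3 as reported. The acinar list had 18 calls with these signals, against 26 as reported, and 25 or 26 under every other fit. With trend and robust variance the interleukin-6 list had 2, the hormones 3 and the beta cell list 5. With no filter the macrophage list had 4 and the hormones 2, and with quantile-normalized GCRMA values the hormones had 2. The duct list had 1 with centring on medians and with detection on all 8 arrays. Leaving out 1 array gave 1 to 3 calls in the interleukin-6 list (3 without AKR/J array 3), 4 to 8 in the macrophage list (4 without C57Bl/6J array 6, 5 without AKR/J array 1 or 2), 1 to 2 in the duct list (1 without array 2, 3, 4, 5, 6 or 8), 0 to 1 among hormones (0 without array 1, 2, 3, 6, 7 or 8) and 2 to 3 in the beta cell list. Where a count fell, the cause was not tested. Reg3g and Reg4 lie near background, where intensities have little meaning.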
